A study of Mus musculus with 14 samples.

Results

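The levels of 10 genes encoding chromatin regulators were followed through the differentiation of C2C12 cells with and without knockdown of Klf5. They were 6 subunits of the SWI/SNF remodelling complex (Smarca2, Smarca4, Smarcc1, Smarcd1, Smarcd2 and Smarcd3), 3 lysine acetyltransferases (Ep300, Crebbp and Kat2b) and the methyltransferase Ezh2. They were picked by gene symbol, with earlier results of these data known, from the 24016 transcripts of the expression table, and all 10 were found, with 1 transcript each. C2C12 is a mouse myoblast line, and its cells fuse into myotubes once growth medium is replaced by medium with 2% horse serum. The cells received either control siRNA (siCtrl) or a pool of siRNAs against Klf5 (siKlf5), and 1 library of poly(A) RNA was sequenced for either siRNA on each of days 0, 1, 2 and 3 in that medium. The 8 RNA libraries are described here, whereas the other 6 of the 14 samples of the series, from chromatin immunoprecipitation, were not analysed here.

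SWI/SNF complexes use the energy of ATP to slide or evict nucleosomes. Each complex carries 1 of the alternative ATPases Smarca4 (also called Brg1) and Smarca2 (Brm), a scaffold containing Smarcc1 (BAF155), and 1 of the BAF60 subunits Smarcd1 (BAF60a), Smarcd2 (BAF60b) and Smarcd3 (BAF60c). In myoblasts, BAF60c binds MyoD and helps to bring the remodelling complex to muscle promoters. The acetyltransferases p300 (Ep300), CBP (Crebbp) and PCAF (Kat2b) acetylate histones, and p300 and PCAF also act on MyoD itself. Ezh2 is the catalytic subunit of Polycomb repressive complex 2 (PRC2), which trimethylates lysine 27 of histone H3 and keeps muscle genes silent in proliferating myoblasts. Ezh1 is its close relative, found also in cells that no longer divide.

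The deposited values are FPKM, that is, reads per kilobase of exon scaled to a fixed library total of 10000000, so they serve for comparison within this table. They were whole multiples of the value of 1 read, which gave a depth of 7850497 to 20301506 reads per library, the deepest being siCtrl on day 2. No condition had a replicate. The change over days was tested with limma by treating the siCtrl and siKlf5 libraries of a day as repeats, and the knockdown effect by treating the 4 days as repeats. The resulting p-values measure the spread between these libraries, not between separate cultures. In the siKlf5 libraries of days 0 to 3, Klf5 itself was at 15.7%, 41.9%, 31.3% and 22.7% of its siCtrl level. The libraries carried the marks of muscle cells, since all 8 muscle markers examined were expressed and their summed FPKM was between 2765 and 16394, whereas the sums of the 3 adipocyte, 3 endothelial, 3 osteoblast and 3 macrophage and leukocyte markers were at most 4.74, 1.04, 10.3 and 24.9. The 3 neuronal and glial markers summed to between 275 and 706, nearly all of it from the tubulin Tubb3, which was called lower on day 3 (limma adjusted p = 0.0027), and their part in the results below was not tested.

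All 10 genes were expressed, and 9 of them lay above the median of expressed transcripts on this per-kilobase scale. Smarcd3 had the highest mean over the 8 libraries (399.5 FPKM, above 90.4% of the 14312 transcripts whose mean reached 1), followed by Smarca4 (281.0), Smarcc1 (244.8), Ezh2 (189.1), Smarcd2 (171.6), Kat2b (116.9), Smarcd1 (109.7), Ep300 (87.1) and Crebbp (83.8). Smarca2 was far below them, at 26.1 FPKM. The ranges of neighbours in this order overlapped from 1 library to the next, except that Smarca2 at its highest (37.7) stayed below Ep300 and Crebbp at their lowest (68.3 and 71.0). Between the highest and the lowest library, Smarcc1 varied by 1.28 times, Smarca4 by 1.38 times, Ezh2 by 3.08 times and Smarca2 by 6.26 times.

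**Figure D1:**
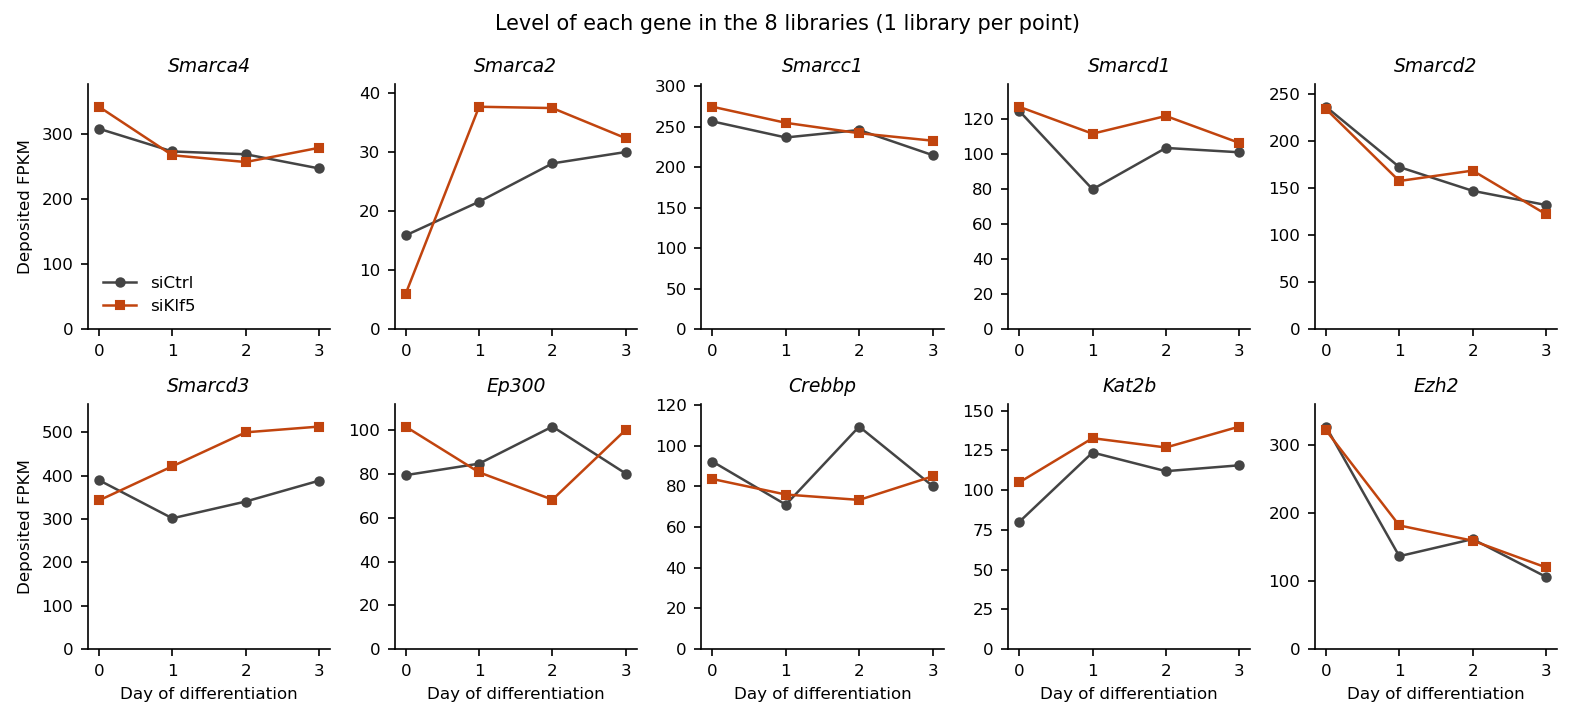
Deposited FPKM (y axis, from 0) of each of the 10 genes on days 0 to 3 (x axis), with circles for siCtrl and squares for siKlf5, 1 library per point and no error bars. Ezh2 and Smarcd2 ended lower than they began in both courses, whereas Smarcd3 lay above siCtrl in the siKlf5 libraries of days 1, 2 and 3 only.

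Differentiation was examined first. Between day 0 and day 3, Ezh2 and Smarcd2 fell, Kat2b and Smarca2 rose, and the other 6 genes did not pass the test. These 4 of 10 calls stand beside a background of 30.4% of all transcripts called in this comparison (limma, Benjamini-Hochberg adjusted p below 0.05), 12.8% higher and 17.6% lower, so the share among the 10 genes was not far from that of the whole transcriptome. The median log2 change was -0.17 over the 10 genes and -0.09 over all transcripts. Of all calls 42.1% were on the higher side, a share that median-ratio scaling of the libraries moved to 54.3%, while the same 4 of the 10 genes were called with it. With the F test for a change on any day, which called 25.1% of transcripts, Ezh2 and Smarcd2 passed and the other 8 did not.

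Ezh2 (NM_007971, chromosome 6 of mm9, 47480273 to 47545029, minus strand) had the largest fall of the 10 genes. On days 0 to 3 its FPKM was 326.8, 136.4, 161.5 and 106.1 in siCtrl cells and 321.5, 181.6, 159.2 and 119.9 in siKlf5 cells. Both day 0 libraries were thus above all 6 later ones, and most of the loss had occurred by day 1. Among all transcripts, 38.1% had both day 3 libraries below both of day 0. The day 3 to day 0 difference was -1.52 on the log2 scale (95% interval -1.85 to -1.19, SE 0.14, limma adjusted p = 0.00022), which leaves 0.348 of the day 0 level. The adjusted p of the F test was 0.0012.

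The transcript whose level followed that of Ezh2 most closely over the 8 libraries was Knstrn, a kinetochore and spindle gene (Pearson r = 0.997 on log2 values among 11590 transcripts whose mean reached 10). Next came Top2a, the topoisomerase of dividing cells (0.996), Hmgb3, a high-mobility group protein (0.994), Birc5, which encodes the mitotic protein survivin (0.994), and Kif18b, a mitotic kinesin (0.992). These correlations describe 8 libraries that share the time course and are given without a test. All 6 proliferation markers examined, Mki67, Ccnb1, Top2a, Mcm2, Cdk1 and Pcna, were lower on day 3 than on day 0 in the same limma fit. The summed FPKM of these markers fell from 3452 to 1237 in siCtrl and from 3732 to 1480 in siKlf5 cells, and the part of this change in the fall of Ezh2 was not tested. In such bulk RNA, fewer cycling cells and less RNA per cell cannot be told apart.

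The start of the counted Ezh2 transcript is shown because it carries letters that E2F factors, the regulators of S phase genes, are known to bind. The 300 bases from 250 before the start to 50 from the start on (mm9, chr6:47544980-47545279, minus strand, written 5′ to 3′ along the gene) hold 1 match, in capitals, to TTTGGCGC or TTTCCCGC on either strand, and it begins 3 bases downstream of the first transcribed base.
Ezh2: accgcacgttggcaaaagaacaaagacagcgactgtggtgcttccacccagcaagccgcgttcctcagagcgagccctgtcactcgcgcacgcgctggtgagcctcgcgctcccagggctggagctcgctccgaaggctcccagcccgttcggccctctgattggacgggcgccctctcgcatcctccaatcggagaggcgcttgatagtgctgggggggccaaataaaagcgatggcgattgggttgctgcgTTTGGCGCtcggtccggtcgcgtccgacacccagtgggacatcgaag
Such letters were present in 2.76% of the 14309 windows of this kind around the starts of expressed transcripts. Of the 10 genes, Smarcd1 was the only other with a match. The match describes the sequence, and binding was not measured there.

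Ezh1 (NM_007970) took the opposite course. Its FPKM rose from 63.4 to 168.2 between day 0 and day 3 in siCtrl cells and from 52.8 to 132.1 in siKlf5 cells, a log2 change of 1.36 (limma adjusted p = 0.00131). The share of Ezh2 in the summed FPKM of Ezh1 and Ezh2 accordingly went from 83.8% to 38.7% in siCtrl and from 85.9% to 47.6% in siKlf5 cells. On day 3 Ezh1 thus had the higher FPKM of the pair in both libraries. It was at 168.2 against 106.1 in siCtrl cells and, more closely, at 132.1 against 119.9 in siKlf5 cells. The order of the pair rests on 1 library per siRNA and was not tested.

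Of the other PRC2 genes, 11 including Ezh1 were tested, and 4 were called lower and 1 (Ezh1) higher on day 3, with a median log2 change of -0.43, while 17.6% of all transcripts were called lower and 12.8% higher, with a median of -0.09. Phf19, an accessory subunit that reads methylated histone H3, fell by 1.47 (limma adjusted p = 0.00571). Suz12 and Eed, which form the core of the complex with Ezh2, fell by 0.86 and 0.75 (adjusted p = 0.00159 and 0.0155, limma). Rbbp7, a histone-binding subunit shared with other complexes, fell by 0.61. The 6 remaining genes were not called, among them Epop at -1.91 (95% interval -3.59 to -0.22), which was detected at low levels, and Rbbp4.

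Smarcd2 (NM_031878, chromosome 11, 106124485 to 106128946, minus strand) was the only SWI/SNF subunit of the 6 whose fall passed the test after adjustment. Its FPKM in siCtrl cells was 236.9, 172.7, 147.4 and 132.3 on days 0 to 3, and in siKlf5 cells it was 234.5, 157.9, 168.9 and 122.5. The day 0 libraries were the highest and the day 3 libraries the lowest in both courses, without overlap. The counted transcript starts 5340 bases downstream of the annotated gene start, spans 45.6% of the gene and has 86.5% of the length of the longest coding transcript. The log2 change from day 0 to day 3 was -0.89 (95% interval -1.19 to -0.59, SE 0.13, limma adjusted p = 0.00178).

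Smarcd3 (NM_025891, chromosome 5, 24098440 to 24107820, minus strand) was the most abundant BAF60 gene in every library. The trend of its knockdown ratio over days is given below. Its day 3 level stood differently to its day 0 level in the siCtrl and siKlf5 courses, a difference not tested by itself. In siCtrl cells it was 389.4 FPKM on day 0 and 388.3 on day 3, whereas in siKlf5 cells it went from 342.7 to 512.9. The fit over both arms gave 0.29 (95% interval -0.12 to 0.69, limma adjusted p = 0.255), a value that reached 0.62 (adjusted p = 0.0400) without the siCtrl day 0 library and -0.04 without that of siKlf5 on day 0. Smarcd1 (NM_031842, chromosome 15, 99532718 to 99544426, plus strand) had log2 change -0.28 (95% interval -0.65 to 0.09, adjusted p = 0.229). Because both strands were counted, reads of Smarcd3 could be shared with exons of Chpf2, those of Smarcd1 with Gm17349 and those of Ezh2 with Gm17629, each annotated on the opposite strand.

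Within the BAF60 family the make-up shifted towards Smarcd3. Its share of the summed FPKM of the 3 genes was 51.8%, 54.4%, 57.5% and 62.4% on days 0 to 3 in siCtrl cells. In siKlf5 cells the share was 48.6%, 61.0%, 63.2% and 69.1%. It thus was higher on each day than on the day before in both courses, and from day 1 on it was higher in siKlf5 than in siCtrl cells. The share of Smarcd2 moved the other way, from 31.5% to 21.3% in siCtrl and from 33.3% to 16.5% in siKlf5 cells, and that of Smarcd1 stayed between 14.4% and 18.1%. These shares have 1 library per point and no test.

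**Figure D2:**
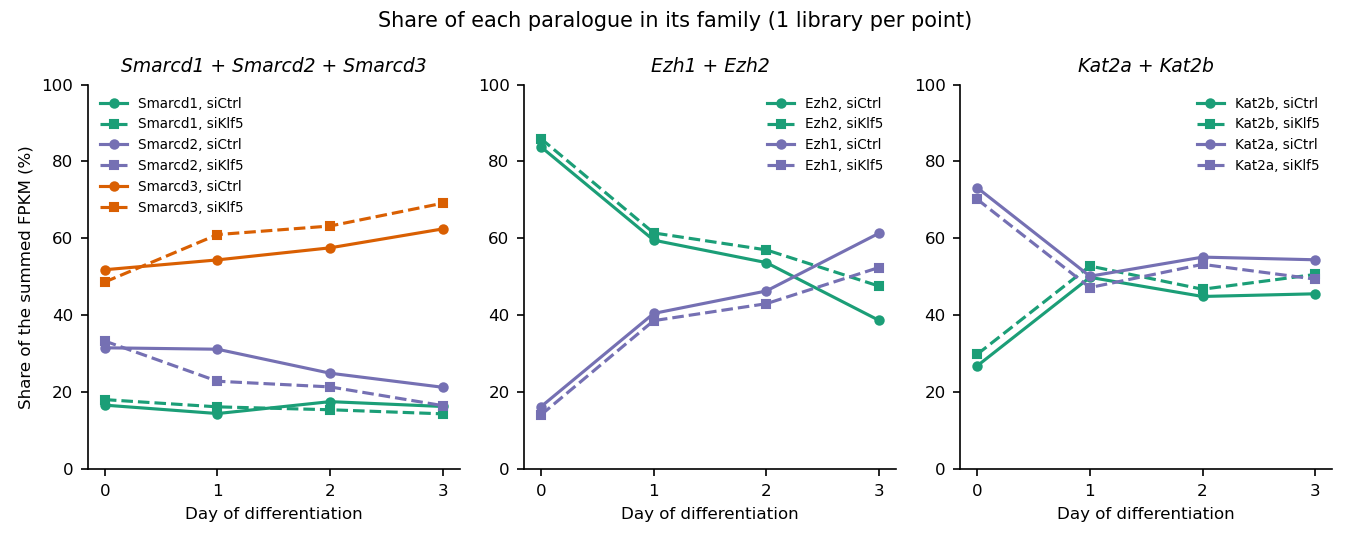
Share of each paralogue in the summed FPKM of its family (y axis, percent) on days 0 to 3 (x axis), with solid lines for siCtrl and dashed lines for siKlf5, 1 library per point. The share of Smarcd3 ended at 62.4% in siCtrl and 69.1% in siKlf5, and that of Ezh2 dropped below 50% on day 3 in both.

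The ATPase Smarca4 (NM_001174079, chromosome 9, 21420613 to 21508674, plus strand) changed little. Its FPKM was 308.8, 273.9, 269.5 and 247.7 in siCtrl cells and 342.7, 268.0, 257.5 and 279.5 in siKlf5 cells. Day 0 was highest in both courses, but the log2 difference of -0.31 (95% interval -0.57 to -0.05) did not pass after adjustment (limma adjusted p = 0.0747). Smarcc1 (NM_009211, chromosome 9, 110034528 to 110142682, plus strand) was similar, at 256.6 FPKM on day 0 and 215.0 on day 3 in siCtrl cells and 274.7 and 232.8 in siKlf5 cells, with a log2 difference of -0.25 (95% interval -0.49 to -0.00, adjusted p = 0.116).

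Smarca2 (NM_026003, chromosome 19, 26822893 to 26852811, plus strand) was called higher on day 3. Its FPKM was 15.9, 21.6, 28.1 and 30.0 in siCtrl cells and 6.02, 37.7, 37.4 and 32.3 in siKlf5 cells. The log2 change was 1.66 with a wide interval of 0.46 to 2.86 (SE 0.52, limma adjusted p = 0.0444). The siKlf5 value on day 0 rested on 21 reads, and without that library the change was 0.75 (limma adjusted p = 0.277). The call was also lost without any 1 of the siCtrl libraries of days 1, 2 and 3 or the siKlf5 libraries of days 1, 2 and 3, with adjusted p of 0.0697 to 0.265, and held without siCtrl day 0 (2.57, adjusted p = 0.0291). Closest to the shape of its course over the 8 libraries were Ryk, a receptor for Wnt ligands (Pearson r = 0.975), and the chemokine Ccl11 (0.972). Next were Fam117a (0.972), Asb5 (0.971) and the noncoding 0610009L18Rik (0.971), a description without a test. Pearson r takes no account of the size of a change. In the order named, their log2 changes from day 0 to day 3 were 0.29, 6.19, 1.46, 0.83 and 5.69.

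The row for Smarca2 does not stand for the whole gene. The counted transcript has 1951 bases of exon and begins 143243 bases downstream of the annotated gene start, and its span covers 17.3% of the gene. The longest coding transcript has 5913 bases in 33 exons, of which 6 lie within the counted span. Reads from the exons before that span were thus outside the count. Within it, the exon at 154718 to 154771 bases from the gene start is absent from the annotated short transcript that shares the counted start. The other long-transcript exons there overlap exons of that short transcript. Reads of the full-length ATPase can thus fall in this row too, and the count does not tell these transcripts apart. The ratio of Smarca4 to Smarca2, between 6.88 and 56.9, compares a nearly complete transcript with the counted part of Smarca2 only.
The 300 bases around this internal start (mm9, chr19:26822643-26822942, plus strand) are shown because they mark where the counted transcript begins. They have 45.7% G or C, against a median of 60.7% over the windows of expressed transcripts, and none of the motifs searched.
Smarca2: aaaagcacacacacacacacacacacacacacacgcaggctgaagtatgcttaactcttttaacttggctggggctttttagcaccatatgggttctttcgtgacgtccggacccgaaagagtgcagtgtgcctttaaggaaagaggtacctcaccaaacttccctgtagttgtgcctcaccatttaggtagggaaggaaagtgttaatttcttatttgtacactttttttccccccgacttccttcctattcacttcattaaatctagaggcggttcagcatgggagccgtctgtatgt

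**Figure D3:**
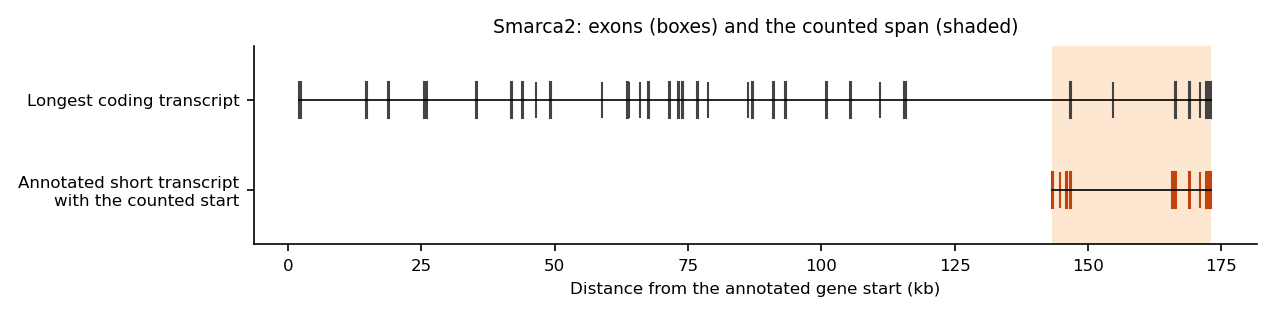
Exons (boxes) of the longest coding transcript of Smarca2 and of an annotated short transcript that shares the counted start, drawn to scale along the distance from the annotated gene start in kilobases (x axis). The shaded span is the counted one and begins 143243 bases from the gene start, where it takes in 6 of 33 exons of the long transcript.

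Among the acetyltransferases, Kat2b (NM_001190846, chromosome 17, 53723451 to 53812046, plus strand) was called higher on day 3. On days 0 to 3 its FPKM was 80.0, 123.7, 111.9 and 115.6 in siCtrl cells and 104.8, 132.7, 126.8 and 140.0 in siKlf5 cells. Day 0 was lowest in both courses, and the 6 later libraries were all above both day 0 libraries. For comparison, 28% of all transcripts had both day 3 libraries above both of day 0. The log2 change was 0.47 (95% interval 0.15 to 0.80, SE 0.14, limma adjusted p = 0.0361). It stayed between 0.37 and 0.59 in 16 alternative settings, of which 7 kept the call. The call was lost without either library of day 0 (adjusted p = 0.173 without siCtrl, 0.0826 without siKlf5), of day 2 (0.0700 and 0.0711) or of day 3 (0.129 and 0.153).

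Kat2a, the paralogue that encodes GCN5, fell over the same days, from 217.7 to 138.1 FPKM in siCtrl and from 246.2 to 136.6 in siKlf5 cells (log2 change -0.75, limma adjusted p = 0.0032). The share of Kat2b in the summed FPKM of the pair therefore rose from 26.9% to 45.6% in siCtrl and from 29.9% to 50.6% in siKlf5 cells. The share was highest on day 1, at 49.9% and 52.8%.

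The counted Kat2b transcript also starts inside the gene, 17265 bases downstream of the annotated gene start, and its 4080 bases of exon are 87.7% of the length of the longest coding transcript. Its start is shown because of a pair of E-boxes, the hexamer CAGCTG that MyoD is known to prefer. They lie 34 and 19 bases before the start (mm9, chr17:53723201-53723500, plus strand, E-boxes in capitals).
Kat2b: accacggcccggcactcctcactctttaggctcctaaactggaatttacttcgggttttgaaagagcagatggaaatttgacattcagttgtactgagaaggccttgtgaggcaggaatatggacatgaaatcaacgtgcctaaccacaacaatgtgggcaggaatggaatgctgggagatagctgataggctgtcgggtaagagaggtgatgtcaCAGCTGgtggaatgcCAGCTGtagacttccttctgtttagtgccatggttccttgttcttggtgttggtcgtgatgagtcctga
At least 1 CAGCTG was found in 15.6% of windows around expressed transcripts. Smarcd1 and Smarcd3 held 1 each and the other 7 genes none. Binding of MyoD was not examined at these letters. Klf-type letters, GGGCGTG or GGGTGTG on either strand, were found in 21.2% of windows and in 1 of the 10 genes, Smarcc1.

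Ep300 (NM_177821, chromosome 15, 81416644 to 81482507, plus strand) and Crebbp (NM_001025432, chromosome 16, 4084048 to 4213404, minus strand) had no detectable net change. The log2 difference was -0.00 for Ep300 (95% interval -0.56 to 0.55, limma adjusted p = 1) and -0.09 for Crebbp (95% interval -0.56 to 0.38, adjusted p = 0.782). The paralogues were about equally abundant, with Ep300 between 46.3% and 54.9% of their sum in the 8 libraries.

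The other genes of these pathways were set beside the 10. In 4 lists of 75 other chromatin genes, 74 were in the table and 71 were expressed and tested, and 3 rose and 16 fell from day 0 to day 3, with a median log2 change of -0.24. Beside the 12.8% of all transcripts called higher, the 17.6% called lower and the overall median of -0.09, these counts describe the lists, which were not tested as sets. Of 21 other SWI/SNF subunits tested, 4 fell and none rose in limma, next to 17.6% of all transcripts called lower. These were Brd9 (-0.65), the bromodomain subunit of the non-canonical complex, Phf10 (-0.51), of the PBAF complex, the core subunit Smarcb1 (-0.50) and Ss18 (-0.39), with adjusted p of 0.0217 to 0.0383. At an unadjusted limma p below 0.05, 6 were lower and 1 was higher. No share of all transcripts at that threshold stands beside these counts, so they do not show an excess.

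Against the same 17.6% of all transcripts called lower and 12.8% higher, 2 of 11 other histone acetyltransferases fell, Kat2a and Hat1, which acetylates newly made histone H4 (-1.68, limma adjusted p = 0.000102). Among 28 further partners of MyoD or muscle chromatin enzymes, Setd7, a lysine methyltransferase, rose by 1.11 on the log2 scale (adjusted p = 0.000659) and the kinase Akt2 by 0.95. Suv39h1, the histone H3 lysine 9 methyltransferase, fell by 1.31 on this scale, Mapk11 (p38 beta) fell by 0.90 and Paxip1 fell by 0.60. The arginine methyltransferases Prmt1, Prmt5 and Carm1 were called too, with smaller falls of 0.35 to 0.42. Of the 28, 2 were thus called higher, 6 lower and 20 not.

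**Figure D4:**
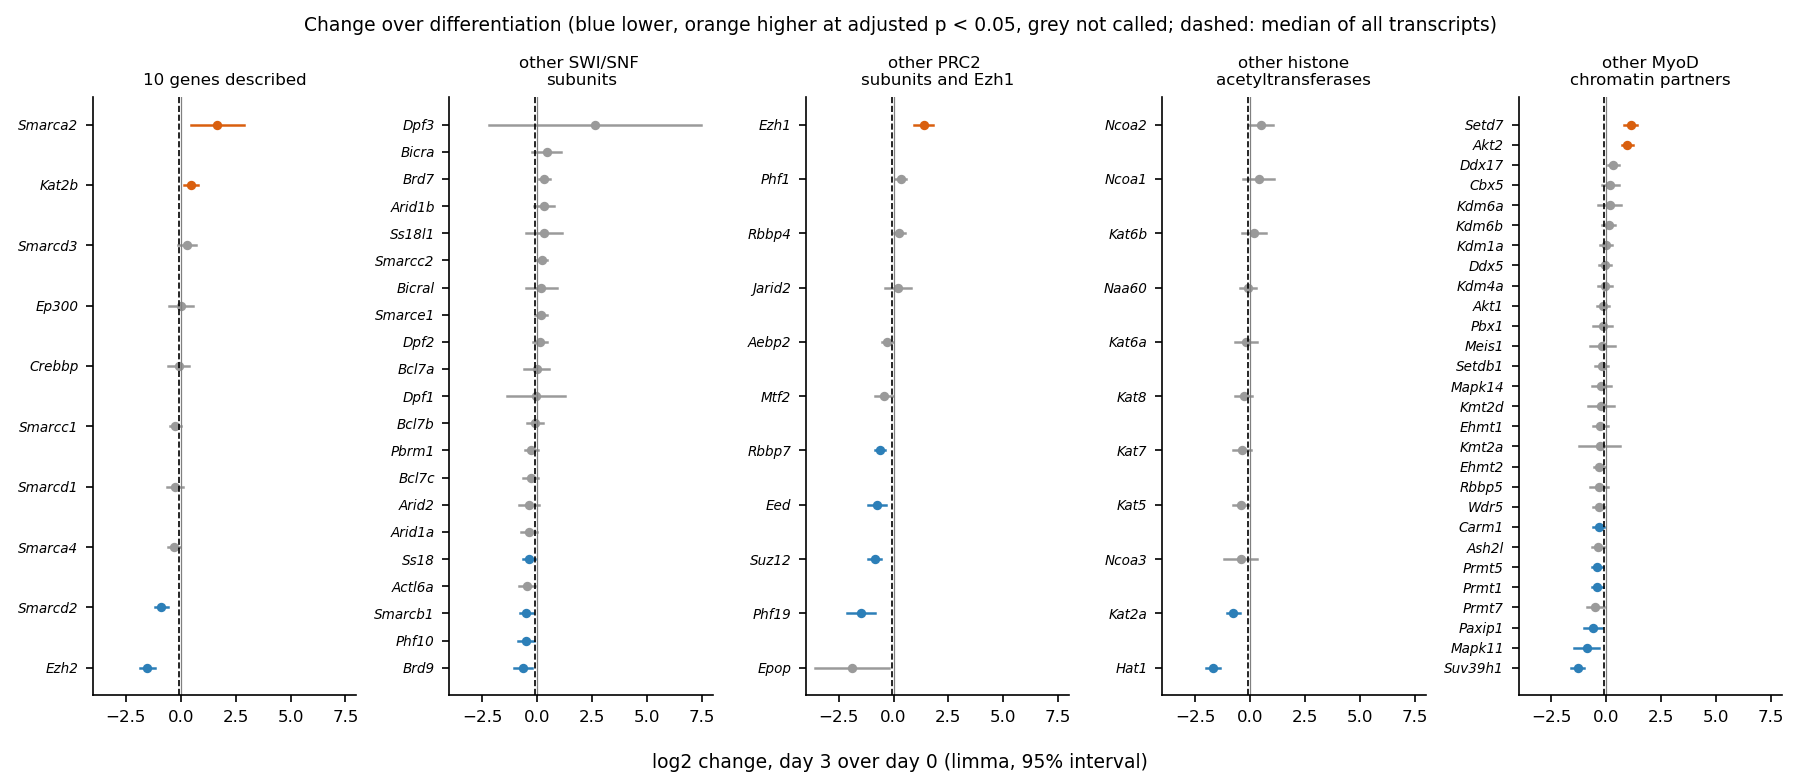
Log2 change from day 0 to day 3 (x axis, limma estimate with 95% interval) of the 10 genes and of 4 lists of other chromatin genes (y axis, 1 gene per row), with blue for called lower, orange for called higher and grey for not called, and a dashed line at the median of all transcripts (-0.09). Ezh2 (-1.52) and Hat1 (-1.68) had the lowest called values, and Smarca2 (1.66) and Ezh1 (1.36) the highest.

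The effect of Klf5 knockdown was examined next. Over the 4 days, none of the 10 genes and none of the 71 other chromatin genes passed the test, against 0.0629% of all transcripts (9 of 14312, limma adjusted p below 0.05, while 1374 had an unadjusted p below 0.05, among them 2 of the 10 genes and 4 of the 71). The median log2 difference of siKlf5 and siCtrl was 0.07 over the 10 genes and 0.01 over all transcripts. The widths of the intervals differed between genes. They are not adjusted for the number of transcripts tested, so effects larger than these widths could be missed too. For Smarca4 the interval was -0.13 to 0.24, for Smarcc1 -0.10 to 0.25 and for Smarcd2 -0.23 to 0.20, whereas for Smarca2 it was -0.86 to 0.83.

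Smarcd3 had the highest knockdown estimate of the 10. It was lower in siKlf5 than in siCtrl cells on day 0, at 342.7 against 389.4 FPKM. It was higher on day 1, at 421.4 against 301.5, on day 2, at 499.7 against 340.2, and on day 3, at 512.9 against 388.3. The log2 ratios of these 3 days were 0.48 (95% counting interval 0.12 to 0.85), 0.55 (0.32 to 0.79) and 0.40 (0.14 to 0.66), and the interval left out 0 on each. Such intervals cover counting error only, and the share of all transcripts whose interval leaves out 0 was not counted. Over the 4 days the difference was 0.31 (95% interval 0.03 to 0.60, unadjusted p = 0.0351, limma adjusted p = 0.477), and it was 0.48 without day 0 (adjusted p = 0.403). The linear trend of the ratio over days was 0.18 per day (95% interval -0.04 to 0.40, limma adjusted p = 0.9995).

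Counting intervals here are exact binomial intervals on reads divided by 6, since values worth 6 reads were 2.83 to 10.0 times as frequent as those worth 5, and they cover counting error only. Myog, the myogenic factor induced at the onset of differentiation, was lower in the siKlf5 library on each day (log2 ratio -0.55, -0.32, -0.24 and -0.73), while Myod1 was at -0.33, -0.12, 0.16 and 0.07. The higher level of Smarcd3 on days 1 to 3 thus stood beside a lower level of Myog in the same libraries. The other muscle markers did not share the difference of Myog. Their limma knockdown estimates over the 4 days were 0.17 for Acta1, 0.12 for Myf5, 0.06 for Myh3 and 0.05 for Ckm. They were -0.03 for Des, -0.06 for Myod1 and -0.07 for Tnnt3, and none of the 8 muscle markers was called.

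Kat2b was higher in the siKlf5 library on 4 of 4 days, with log2 ratios of 0.39, 0.10, 0.18 and 0.28. The mean difference was 0.24 (95% interval 0.01 to 0.47, unadjusted p = 0.0440, limma adjusted p = 0.505). Smarcd1 also was higher on 4 of 4 days, by 0.03 to 0.48, with a mean of 0.20 (adjusted p = 0.604). Among all transcripts, 9.05% were higher on all 4 days. The 2 of 10 genes are above that share, but the count is small and was not tested. For Ezh2 the difference was 0.14 (95% interval -0.10 to 0.37), and its highest daily ratio was 0.41, on day 1.

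Ep300 and Crebbp differed from day to day. The FPKM of Ep300 in siCtrl cells was 79.5, 84.7, 101.7 and 80.2 on days 0 to 3, and in siKlf5 cells it was 101.6, 80.8, 68.3 and 100.2. The log2 ratio was thus 0.35 on day 0 (counting interval 0.09 to 0.62), -0.57 on day 2 (-0.82 to -0.33) and 0.32 on day 3 (0.06 to 0.58). The FPKM of Crebbp was 92.1, 71.0, 109.3 and 80.2 in siCtrl and 83.6, 75.9, 73.3 and 84.9 in siKlf5 cells, and only its day 2 ratio of -0.58 (-0.84 to -0.32) had an interval without 0. Averaged over the days, the difference was 0.01 for Ep300 (95% interval -0.38 to 0.40) and -0.13 for Crebbp (-0.47 to 0.20).

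On day 2, the ratio over all transcripts also moved with transcript length. The exons of Ep300 and Crebbp measure 8716 and 7474 bases, the longest of the 10 genes. On day 2, 84.6% of the 775 expressed transcripts with at least 7000 bases of exon were lower in the siKlf5 library, with a median log2 ratio of -0.32, whereas the median of the 5355 transcripts under 2000 bases was 0.02. On days 0, 1 and 3 the median of the long transcripts was 0.09, 0.01 and 0.14. The ratios of Ep300 on these days were 0.35, -0.07 and 0.32, and those of Crebbp were -0.14, 0.10 and 0.08. The siCtrl library of day 2 was also the deepest. The length classes were chosen after the values were seen, and their part in the ratios of Ep300 and Crebbp was not tested.

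Past 1.5-fold, Smarca2 was the only one of the 10 genes, on day 0 (log2 ratio -1.39) and on day 1 (0.80). Of all transcripts, 20.4%, 27.4%, 20.7% and 23.3% were past 1.5-fold in either direction on days 0, 1, 2 and 3. The counting intervals of Smarca2 were -3.68 to 0.46 and -0.46 to 2.16, from 21 against 61 reads on day 0 and 98 against 54 on day 1, so neither difference was detectable with reads divided by 6. Taken as single reads, the intervals were -2.19 to -0.66 and 0.31 to 1.31, and both left out 0.

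**Figure D5:**
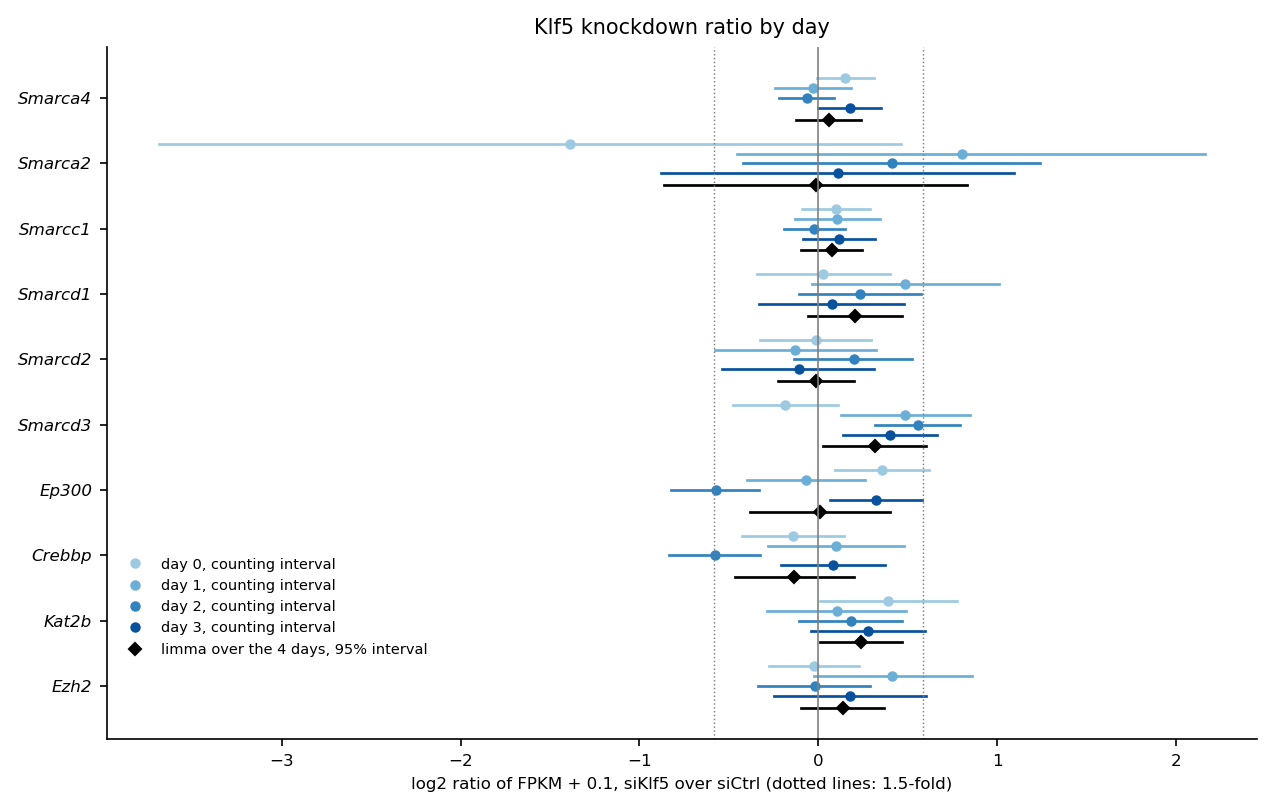
Log2 ratio of siKlf5 to siCtrl (x axis, FPKM plus 0.1) for each of the 10 genes (y axis), with blue points for days 0 to 3 and their 95% counting intervals, black diamonds for the limma estimate over the 4 days with its 95% interval, and dotted lines at 1.5-fold. The Smarcd3 points of days 1 to 3 lie between 0.40 and 0.55, and the day 2 points of Ep300 and Crebbp lie at -0.57 and -0.58.

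No linear trend of the knockdown ratio over days was detected for the 10 genes. The trend was fitted with 2 residual degrees of freedom, so a trend could be missed. A linear term also does not describe a course that turns back, as that of Ep300 did. In the fit with a linear trend of the siRNA effect over days, 0% of the 14312 transcripts passed in limma, while 694 had an unadjusted p below 0.05. The log2 change of Ezh2 from day 0 to day 3 was -1.62 in siCtrl and -1.42 in siKlf5 cells, and that of Smarcd2 was -0.84 and -0.94. The trend of the knockdown ratio over all 4 days was 0.02 per day for Ezh2 (95% interval -0.21 to 0.24) and 0.00 for Smarcd2 (-0.20 to 0.21). This trend is not the difference between the changes of the siCtrl and siKlf5 courses, which was not tested by itself.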

How the data were processed

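The authors selected poly(A) RNA, sequenced it paired-end, aligned the reads to mm9 with STAR and counted them on RefSeq exons with HOMER, on both strands, with at most 3 reads per position and 1 transcript per gene. The FPKM values the authors deposited were used as they stand. The log2 columns they deposited, with an added number between 0 and 1, were not used, as 1 of them names no day. Counts normalized with DESeq2, which the study mentions, did not enter any result.

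Transcripts with a mean FPKM of at least 1 (14312 of 24016) were tested with limma 3.58.1 (R 4.3.3, trend on mean expression) on log2(FPKM + 0.1), with day as a factor and siRNA as terms and 3 residual degrees of freedom. Such fold changes understate the change of low transcripts. P-values were adjusted over all transcripts by Benjamini-Hochberg. Per-day ratios had no test, only exact 95% counting intervals. Alternatives were other pseudocounts, filters, scalings and variance priors, and leaving out libraries.

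The 10 genes and the gene lists were chosen with earlier results of these data known. Named from the lists were the 3 largest called rises and falls of each, and Ss18, Rbbp7, Prmt1, Prmt5, Carm1, Epop and Rbbp4 were added after their values were seen. Sequences were read from NCBIM37, the assembly behind mm9, at the starts in the deposited table, and gene spans came from GENCODE. Figures were drawn with matplotlib 3.10.9.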

Additional observations from a re-analysis of the deposited data

Results flagged for a closer look

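The ratio of siKlf5 to siCtrl for Smarca2 went in opposite directions on neighbouring days. It was -1.39 on the log2 scale on day 0 and 0.80 on day 1. The difference between these days was not tested by itself, since each has 1 library per siRNA. The linear trend of the ratio over the 4 days was 0.41 per day (95% interval -0.31 to 1.13, limma adjusted p = 0.9995), and both daily counting intervals include 0 on reads divided by 6 but not on single reads.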

How the results depend on the processing

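Ezh2 and Smarcd2 kept their fall from day 0 to day 3, with limma adjusted p below 0.05, in 16 of 16 alternatives (highest 0.0265 and 0.0438). Kat2b kept its call in 7 and Smarca2 in 5 of 16. No knockdown estimate of the 10 genes passed in any of 19 alternatives. Of 550 limma results of the 10 genes under alternatives, 485 kept direction and call, 29 lost the call, 3 gained one and 33 changed sign, and all 120 alternative per-day ratios lay within their counting intervals.

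Among the sign changes, the knockdown effect of Smarca2 became 0.00399 with a pseudocount of 1. With median-ratio scaling the day 3 difference became 0.109 for Ep300 and 0.0230 for Crebbp, and the trend term 0.00566 for Smarcc1, 0.00311 for Smarcd1 and 0.0131 for Crebbp. With upper-quartile scaling these were 0.104, 0.0179, 0.00957, 0.00702 and 0.0171. The other sign changes came from leaving out 1 day or library. Then the knockdown effect ranged from -0.288 to 0.441 for Smarca2, from -0.107 to 0.202 for Ep300, from -0.0852 to 0.0237 for Smarcd2 and from -0.212 to 0.0131 for Crebbp, and the day 3 difference from -0.0432 to 0.621 for Smarcd3, from -0.234 to 0.227 for Ep300 and from -0.234 to 0.0548 for Crebbp.

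The 9 transcripts called for knockdown became 0 with no filter (1435 at an unadjusted p below 0.05, limma), 0 without the trend in the variance prior (1091), 0 on leaving out any 1 day or library (975 to 1147), and 1 with no replicate block, that is, with day left out of the fit. The pairing by day comes from the labels. The 4347 called between day 3 and day 0 became 2161 with no filter, 2593 without the trend and 1512 to 4234 on leaving out 1 library or day, and the 3588 of the F test became 903, 935 and 485 to 2807. Median-ratio and upper-quartile scaling moved the share of higher calls on day 3 from 42.1% to 54.3% and 53.4%, and the median of all transcripts from -0.09 to 0.01. The transcripts past 1.5-fold on days 0, 1, 2 and 3 numbered 2914, 3917, 2957 and 3328. With a mean of at least 5 they numbered 1744 on day 0, 1689 on day 2 and 2061 on day 3, with no filter 5018, 5254 and 5422, and at 2-fold 1761, 2224, 1666 and 1962 on days 0 to 3. With single reads in the intervals, 18 of 40 changed on whether they include 0. More transcripts tested or fewer libraries define these alternatives, and the cause of each change was not tested. The alternative with the deposited log2 columns was not run, because 1 column names no day. With 1 library per condition, effects under the interval widths given above could not be seen. Larger ones could be missed too, since those intervals are not adjusted for the number of transcripts tested.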
